A study of Mus musculus with 37 samples.

Results

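The trophoblast stem and placental lineage genes are 8 genes chosen by name, Elf5, Cdx2, Eomes, Tead4, Ets2, Sox3, Bmp4 and Hand1, of 55401 genes listed in the deposited tables. The rule uses symbols alone and no expression value, and each symbol was found in both tables, the poly(A) RNA-seq table of mouse lineages at embryonic day 6.5 (E6.5) and the total RNA-seq table of oocytes and early embryos.

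Trophoblast is the lineage that builds the placenta. It arises as the outer layer of the blastocyst, the trophectoderm, in which the DNA-binding factor Tead4, working with the Hippo pathway co-activator Yap1, turns on the homeobox factor Cdx2. After implantation a stem cell pool is held in the extraembryonic ectoderm by a circuit of transcription factors that includes Elf5, Eomes, Cdx2 and Ets2 and that depends on fibroblast growth factor signals. The extraembryonic ectoderm also secretes Bmp4, a signal to the neighbouring epiblast, while Hand1 is needed for the differentiation of trophoblast giant cells.

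The study asked how loss of BAP1, a deubiquitinase of histone H2A, changes oocytes and the embryos made from them. Controls were Bap1flox/flox, and knockouts were Gdf9-iCre, Bap1flox/flox. All groups therefore carry the floxed allele, and iCre driven by the Gdf9 promoter deletes it in oocytes. Fully grown oocytes (FGO) and MII eggs had no paternal genome. Late 1-cell (L1C), early 2-cell (E2C) and late 2-cell (L2C) embryos came from eggs fertilized by a B6 male, and E6.5 epiblast (EPI), visceral endoderm (VE) and extraembryonic ectoderm (EXE) from a PWK male. Knockout embryos are maternal knockouts that received a wild-type Bap1 allele from the father. FGO, MII, L1C and L2C had 2 control and 3 knockout libraries each, and E2C had 3 of each. EPI and VE had 2 control and 2 knockout libraries each, and EXE had 1 control and 2 knockout libraries. How many oocytes or embryos entered a library is not given in the sources used here. Nor is it given whether the libraries of a group came from separate animals. The p-values therefore measure the spread between libraries, which may be technical. In each E6.5 group of 2 libraries the Y-linked genes were at 0 in 1 and not in the other, so there the spread includes different embryos.

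Values are FPKM, fragments normalized to transcript length and library size. The depth of each library is unknown, since FPKM keeps no read numbers. Between 10353 and 12459 genes reached 1 FPKM in a library. Libraries of 1 group correlated at 0.963 to 0.995 in the total RNA table and at 0.914 to 0.972 in the E6.5 table, the lowest value being that of the 2 EPI knockout libraries. Bap1, the targeted gene, measured 16.3 to 29.9 FPKM in the 11 control and 3.76 to 11.7 FPKM in the 15 knockout libraries up to L2C. At E6.5, where the paternal allele is intact, it measured 14.0 to 22.6 FPKM in control and 18.3 to 33.8 FPKM in maternal knockout libraries and cannot check the labels. Differences between groups were tested with limma on log2(FPKM + 1), a scale that understates changes of low genes, and a gene was called at a Benjamini-Hochberg adjusted p under 0.05 over all genes tested in that comparison.

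Promoter windows of 5 of the 8 genes were found in the RefSeq table (GRCm38.p6). Bases upstream of the start site are shown for the 4 genes that had any left after the exon cut described next. Each window was cut, from its upstream end, at the first base that overlaps an annotated exon of the gene. This left no bases for Ets2 and for the first start site of Elf5. Capitals mark the motifs found, a T-box site (GGTGTGA, seen as TCACACC) at -72 from the second Elf5 start and an ETS site (CCGGAAG, seen as CTTCCGG) at -96 from the Bmp4 start. The windows lie at chr2:103423818-103424061 (plus strand), chr5:147307271-147307499 (minus), chr9:118477939-118478188 (plus) and chr14:46390670-46390919 (minus), in the order given.
Elf5: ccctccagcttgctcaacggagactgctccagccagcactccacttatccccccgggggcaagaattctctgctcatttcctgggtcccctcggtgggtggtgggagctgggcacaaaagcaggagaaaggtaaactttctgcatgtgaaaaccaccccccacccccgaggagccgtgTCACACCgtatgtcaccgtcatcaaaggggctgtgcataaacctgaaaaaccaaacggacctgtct
Cdx2: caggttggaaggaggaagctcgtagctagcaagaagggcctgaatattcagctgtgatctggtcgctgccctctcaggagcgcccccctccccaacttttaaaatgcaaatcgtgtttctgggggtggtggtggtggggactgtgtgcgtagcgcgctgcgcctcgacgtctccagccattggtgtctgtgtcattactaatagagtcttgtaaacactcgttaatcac
Eomes: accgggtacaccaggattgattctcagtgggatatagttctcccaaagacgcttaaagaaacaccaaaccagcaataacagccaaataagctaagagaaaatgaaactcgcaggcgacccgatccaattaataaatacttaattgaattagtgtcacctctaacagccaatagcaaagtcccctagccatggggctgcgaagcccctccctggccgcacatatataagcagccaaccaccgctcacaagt
Bmp4: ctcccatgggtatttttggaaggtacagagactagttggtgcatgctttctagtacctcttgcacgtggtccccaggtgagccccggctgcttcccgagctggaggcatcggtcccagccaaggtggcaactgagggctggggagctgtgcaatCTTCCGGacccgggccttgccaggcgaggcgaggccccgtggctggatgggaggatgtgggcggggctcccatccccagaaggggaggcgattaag

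The 7 motifs were searched on both strands in the 250 bases upstream of each of 32851 start sites. The T-box letters occurred in 3.33% of them, the ETS letters in 6.91%, TEAD letters (GGAATG) in 12.6%, SOX letters (ACAATGG) in 3.02%, CDX letters (TTTATGG) in 2.43%, GATA letters (AGATAAG) in 2.74% and E-box letters (CATCTG) in 14.4%. In these 250 bases of the 5 genes, before exons were left out, TEAD and SOX letters were found for Elf5 only, and CDX, GATA and E-box letters for none. These matches describe the sequence alone. The shown stretches held 57.0% (Elf5), 53.7% (Cdx2), 46.4% (Eomes) and 63.2% (Bmp4) G and C bases, beside a median of 52.4% over all windows.

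In the E6.5 embryo 7 of the 8 genes were higher in EXE than in EPI, where 9.13% of all genes tested were called higher in EXE, and all 8 were higher in EXE than in VE, where 11.3% were. Elf5, Hand1 and Bmp4 came closest to being restricted to EXE, whereas Sox3 was shared with EPI and Tead4 and Cdx2 were also present in VE. For 7 genes, all but Sox3, the lowest of the 3 EXE libraries exceeded the highest of the 8 EPI and VE libraries. The share of all genes separated in this way was not computed. Across the 3 EXE libraries the mean level fell in the order Elf5 (156 FPKM), Bmp4 (102), Eomes (85.4), Hand1 (57.2), Ets2 (45.6), Sox3 (19.9), Tead4 (13.7) and Cdx2 (10.7). In that order the ranges of Bmp4 and Eomes overlapped, as did those of Hand1 and Ets2, of Sox3 and Tead4, and of Tead4 and Cdx2.

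**Figure D1:**
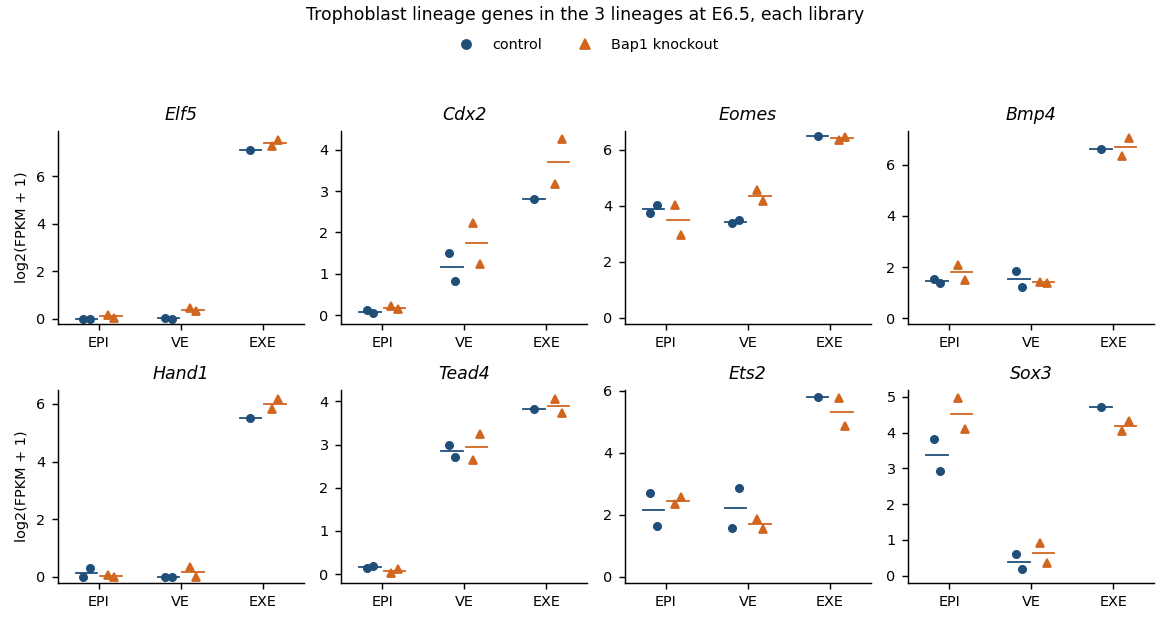
Level of each gene as log2(FPKM + 1) (vertical axis) in epiblast (EPI), visceral endoderm (VE) and extraembryonic ectoderm (EXE). Each point is 1 library, circles are control and triangles Bap1 knockout, and short lines are group means. All genes but Sox3 have their EXE points above every other point.

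Elf5 (ENSMUSG00000027186.15, chr2:103411688-103450989, plus strand in GENCODE M21, GRCm38) encodes an ETS-family factor that maintains trophoblast stem cells. It measured 135 FPKM in the EXE control and 151 and 184 FPKM in the EXE knockouts. In EPI it was listed at 0 in both controls and measured 0.131 and 0.0279 FPKM in the knockouts. VE controls measured 0.0224 and 0 FPKM and VE knockouts 0.381 and 0.238 FPKM. The lowest EXE library was 353 times the highest library of another lineage, and EXE took 99.9% of the summed lineage means. The difference was 7.18 ± 0.24 (SE) on the log2(FPKM + 1) scale against EPI and 7.03 ± 0.24 against VE, with limma adjusted p of 9.99e-07 and 1.74e-07. Only 4 and 3 of 13914 genes tested, Elf5 included, had a difference as large.

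Hand1 (ENSMUSG00000037335.13, chr11:57828705-57832818, minus strand), the helix-loop-helix factor of giant cell differentiation, measured 44.8 FPKM in the EXE control and 55.4 and 71.4 FPKM in the EXE knockouts. Outside EXE it did not exceed 0.273 FPKM and was listed at 0 in 5 of 8 libraries. Its differences were 5.67 ± 0.25 (SE) against EPI and 5.67 ± 0.25 against VE (limma adjusted p of 1.4e-06 and 6.14e-07). Bmp4 (ENSMUSG00000021835.15, chr14:46383520-46390669, minus strand), the secreted ligand, measured 95.9 FPKM in the EXE control and 79.3 and 130 FPKM in the EXE knockouts. EPI libraries measured 1.93 and 1.59 FPKM in controls and 3.27 and 1.82 FPKM in knockouts, and VE libraries 2.59 and 1.32 FPKM in controls and 1.70 and 1.59 FPKM in knockouts. Bmp4 was thus detected in every lineage, with an EXE difference of 5.01 ± 0.31 (SE) against EPI and 5.17 ± 0.31 against VE (limma adjusted p of 9.64e-06 and 3.05e-06). Neither Hand1 nor Bmp4 was called between EPI and VE.

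Eomes (ENSMUSG00000032446.14, chr9:118478212-118486132, plus strand), a T-box factor of trophoblast stem cells that also acts in the epiblast at gastrulation and in visceral endoderm, measured 89.2 FPKM in the EXE control and 79.9 and 87.0 FPKM in the EXE knockouts. EPI libraries measured 12.5 and 15.4 FPKM in controls and 15.3 and 6.70 FPKM in knockouts. VE libraries measured 9.44 and 10.2 FPKM in controls and 22.7 and 16.8 FPKM in knockouts. EXE exceeded both by a smaller margin than for Elf5, with differences of 2.76 ± 0.30 (SE) against EPI and 2.55 ± 0.30 against VE (limma adjusted p of 0.000203 and 0.000217). EPI and VE overlapped, and their difference of -0.20 ± 0.27 was not called. Eomes overlaps Gm33460 on the opposite strand, as Bmp4 overlaps Gm15217 and Gm15222 and Tead4 overlaps Gm21893. The strand setting of the counting is not given in the sources used here, so reads of such partners cannot be told apart.

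Cdx2 (ENSMUSG00000029646.3, chr5:147300805-147307270, minus strand), the trophectoderm homeobox factor, was the lowest of the 8 in EXE and the most variable between the EXE libraries. It measured 6.01 FPKM in the EXE control and 7.98 and 18.0 FPKM in the EXE knockouts. VE measured 1.83 and 0.769 FPKM in controls and 3.72 and 1.36 FPKM in knockouts, and EPI did not exceed 0.171 FPKM. The 3 lineages were ordered EXE, VE, EPI, with differences of 1.81 ± 0.37 (SE) between EXE and VE and -1.32 ± 0.33 between EPI and VE (limma adjusted p of 0.00599 and 0.0108). In control libraries alone the adjusted p of these differences was 0.114 and 0.135, and without the filter on low values that between EPI and VE was 0.0565.

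Tead4 (ENSMUSG00000030353.15, chr6:128224288-128300823, minus strand) showed the same order. It measured 13.2 FPKM in the EXE control, 15.7 and 12.3 FPKM in the EXE knockouts, 6.91 and 5.60 FPKM in VE controls and 5.26 and 8.47 FPKM in VE knockouts. EPI did not exceed 0.132 FPKM. EXE exceeded EPI by 3.75 ± 0.27 (SE) and VE by 0.96 ± 0.27 (limma adjusted p of 2.38e-05 and 0.0287), and EPI was below VE by 2.78 ± 0.24 (difference -2.78, adjusted p of 2.14e-05). The call against VE was lost with a pseudocount of 0.1 (adjusted p of 0.0855), in knockout or control libraries alone (0.1 and 0.208), and without VE knockout replicate 1 (0.103), VE control replicate 2 (0.0691), EXE knockout replicate 1 (0.1) or EXE knockout replicate 2 (0.0519).

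Ets2 (ENSMUSG00000022895.16, chr16:95702075-95721051, plus strand), an ETS factor needed for self-renewal of trophoblast stem cells, measured 55.4 FPKM in the EXE control and 53.4 and 27.9 FPKM in the EXE knockouts. EPI measured 5.47 and 2.11 FPKM in controls and 4.07 and 4.91 FPKM in knockouts, and VE 1.96 and 6.23 FPKM in controls and 2.66 and 1.91 FPKM in knockouts. EXE exceeded EPI by 3.25 ± 0.42 (SE) and VE by 3.61 ± 0.42 (limma adjusted p of 0.000542 and 0.000211). Sox3 (ENSMUSG00000045179.9, chrX:60891366-60893430, minus strand, a single exon) encodes an X-linked SOX factor known from both neural and extraembryonic ectoderm. It measured 25.3 FPKM in the EXE control, 15.4 and 19.0 FPKM in the EXE knockouts, 13.1 and 6.57 FPKM in EPI controls and 30.1 and 16.3 FPKM in EPI knockouts. VE did not exceed 0.897 FPKM. Sox3 exceeded VE in EXE by 3.93 ± 0.35 (SE) and in EPI by 3.44 ± 0.31 (limma adjusted p of 3.68e-05 and 2.93e-05), and its difference between EXE and EPI was 0.49 with a 95% confidence interval of -0.29 to 1.28.

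**Figure D2:**
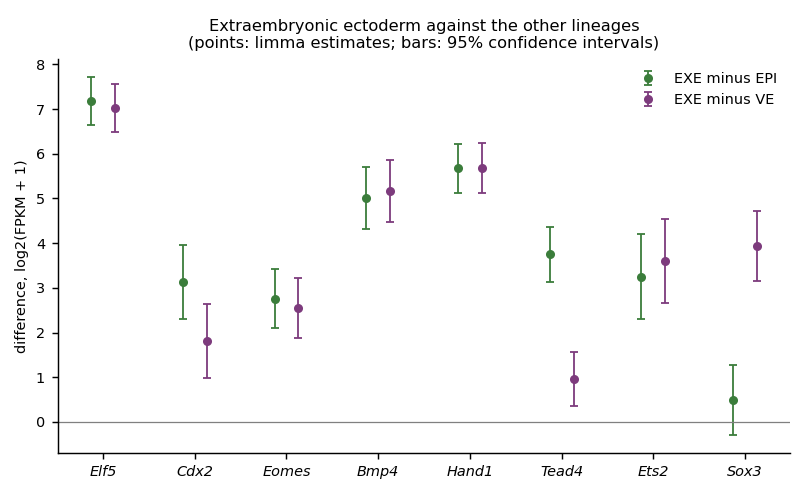
Difference of extraembryonic ectoderm (EXE) from epiblast (EPI) and from visceral endoderm (VE) for each gene, on the log2(FPKM + 1) scale, averaged over genotypes. Points are limma estimates and bars 95% confidence intervals. Elf5, Hand1 and Bmp4 differ by more than 4 units from both lineages, Tead4 by 0.96 from VE, and the Sox3 interval against EPI crosses 0.

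The background of these counts is broad, as 19.6% of 13914 genes tested were called between EXE and EPI, 22.6% between EXE and VE and 38.4% between EPI and VE. The 8 genes had a median difference of 3.50 against EPI and 3.77 against VE, beside -0.03 and 0.16 over all genes. Between EPI and VE the median was -0.07, beside 0.20 over all genes, with Sox3 higher and Tead4 and Cdx2 lower in EPI. Across the 11 libraries, as a description, log2 levels of Elf5, Bmp4 and Hand1 correlated with each other at 0.99 to 1.00, and those of Tead4 and Sox3 at -0.27, all points sharing the 3 lineages.

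Other genes of the trophoblast stem state were mostly higher in EXE too. Of 12 listed, 11 were tested. Against EPI 9 were higher in EXE and none lower, beside 9.13% of all genes called higher. Against VE 10 were higher in EXE and 1 lower, beside 11.3% called higher. The list medians were 3.40 and 3.06. Tfap2c, an AP-2 factor of the trophectoderm, measured 87.9 FPKM in the EXE control and 76.0 to 83.6 FPKM in the knockouts and did not exceed 0.276 FPKM elsewhere (differences of 6.29 ± 0.24 (SE) and 6.24 ± 0.24, limma adjusted p of 9.99e-07 and 3.06e-07). Esrrb, an orphan nuclear receptor of trophoblast stem cells, measured 22.8 FPKM in the EXE control and 23.1 to 38.3 FPKM in the knockouts, a difference of 4.73 ± 0.27 from VE (adjusted p of 2.42e-06). Id2 differed from EPI by 5.40 ± 0.37 (adjusted p of 1.65e-05). The gene lower in EXE than in VE was Msx2, at 2.74 to 3.43 FPKM in EXE and 30.9 to 50.9 FPKM in VE (difference -3.28 ± 0.29, adjusted p of 3.81e-05).

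Genes of differentiated trophoblast and ectoplacental cone divided by lineage. Of 19 listed, 11 were tested, with 9 higher in EXE than in EPI, beside 9.13% of all genes called higher. Against VE 6 were higher in EXE and 1 lower, beside 11.3% called higher. Gjb5, a connexin, measured 257 FPKM in the EXE control and 199 to 219 FPKM in the knockouts and at most 0.643 FPKM elsewhere (differences of 7.37 ± 0.27 (SE) from EPI and 7.72 ± 0.27 from VE, limma adjusted p of 9.99e-07 and 2.06e-07). Rhox6, a placental homeobox gene, was lower in EXE, at 18.9 to 24.6 FPKM, than in VE, at 70.7 to 182 FPKM (difference -2.25 ± 0.36, adjusted p of 0.00158). Tpbpa, the spongiotrophoblast marker, and Prl2c2, a giant cell hormone, were listed at 0 in every E6.5 library, and Gcm1, Syna and Synb of the labyrinth did not exceed 0.187 FPKM.

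Around Bmp4, the ligand Bmp8b and the proprotein convertase Pcsk6 (PACE4) were also highest in EXE, while the target genes Id3 and Id1 were not. Bmp8b measured 20.9 FPKM in the EXE control and 26.1 to 27.9 FPKM in the knockouts, and at most 0.290 FPKM elsewhere (differences of 4.41 ± 0.22 (SE) from EPI and 4.59 ± 0.22 from VE, limma adjusted p of 4.17e-06 and 1.01e-06). Pcsk6 measured 10.9 to 17.4 FPKM in EXE and at most 2.36 FPKM elsewhere. Id3 measured 7.41 to 29.7 FPKM in EXE and 317 to 418 FPKM in EPI and VE, differences of -4.19 ± 0.32 and -4.20 ± 0.32 (adjusted p of 2.92e-05 and 1.39e-05). Id1 measured 36.9 to 53.1 FPKM in EXE, 3.35 to 53.5 FPKM in EPI and 340 to 464 FPKM in VE. Its difference was -2.98 ± 0.60 from VE (adjusted p of 0.00557) and 1.14 ± 0.60 from EPI (0.245). Id2, of the same family, was higher in EXE than in EPI (5.40 ± 0.37, 1.65e-05) and VE (1.79 ± 0.37, 0.00626). Smad6 was higher in EXE than in EPI (1.92 ± 0.27, 0.000939) but not than in VE (-0.06 ± 0.27, 0.904). Smad7 was not called, at 1.42 ± 0.49 from EPI and 1.43 ± 0.49 from VE (0.0767 and 0.0656). Of the 20 BMP pathway genes listed 19 were tested. In EXE 4 were higher and 2 lower than in EPI, beside 19.6% of all genes called. Against VE 2 were higher in EXE and 7 lower, beside 22.6% called. The receptor-activated Smad1 was among the lower ones in both, at 3.45 to 3.48 FPKM in EXE, 6.60 to 12.4 FPKM in EPI and 18.2 to 23.8 FPKM in VE.

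Around Tead4, all 19 Hippo pathway genes listed were tested, with 4 higher and 1 lower in EXE than in EPI, and 4 higher and 2 lower in EXE than in VE. These shares are near the 19.6% and 22.6% of all genes called, and the list medians were 0.48 and 0.26. Tead1 shared the rise over EPI, at 11.4 to 14.9 FPKM in EXE and 1.52 to 4.32 FPKM in EPI (difference 2.1 ± 0.32 (SE), limma adjusted p of 0.00140). Tead2 went the other way, at 30.9 to 47.3 FPKM in EXE and 45.7 to 150 FPKM in EPI (difference -1.21 ± 0.36, adjusted p of 0.0419). Ccn1, a target gene of Yap1 and TEAD factors, measured 29.0 to 35.5 FPKM in EXE and at most 11.2 FPKM in the other lineages (differences of 2.40 ± 0.41 and 2.55 ± 0.41, adjusted p of 0.00270 and 0.00155). Ccn2, another target of these factors, did not follow it, at 0.337 to 1.43 FPKM in EXE, 0.602 to 3.10 FPKM in EPI and 8.81 to 15.8 FPKM in VE (-0.32 ± 0.27 from EPI, adjusted p of 0.503, and -2.66 ± 0.27 from VE, adjusted p of 8.63e-05). Amot, which holds Yap1 at cell junctions, was at most 2.79 FPKM in EXE and 18.6 to 160 FPKM in VE (difference -5.50 ± 0.66, adjusted p of 0.000252). Close relatives of the 8 genes were mostly low, since 4 of 11 listed were tested, with 2 higher and none lower in EXE than in EPI, and 3 higher and 1 lower in EXE than in VE. Elf3 was higher in EXE than in EPI by 3.51 ± 0.23 (adjusted p of 1.51e-05) and Cdx1 by 1.06 ± 0.20 (0.00468), and Sox2 was higher in EXE than in VE by 3.39 ± 0.49 (0.000839). Elf1, an ETS factor, was lower in EXE than in VE (-1.31 ± 0.25, adjusted p of 0.00448).

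The lineage labels were checked on markers of the other cell types. The 9 visceral endoderm markers summed to 6.61 to 20.2 FPKM in EXE, 3.61 to 11.6 FPKM in EPI and 8770 to 11100 FPKM in VE. The 7 epiblast markers summed to 397 to 518 FPKM in EXE, 1280 to 2000 FPKM in EPI and 50 to 167 FPKM in VE, most of the EXE sum being Utf1 at 394 to 482 FPKM. The defining epiblast factor Pou5f1 measured 20.5 FPKM in the EXE control, 0.127 to 13.8 FPKM in the EXE knockouts and 274 to 694 FPKM in EPI. Streak and mesoderm markers summed to 30.5 FPKM in the EXE control and 3.27 and 5.90 FPKM in the EXE knockouts, 25.7 FPKM of the former being Fgf8. Decidua and blood markers summed to 25.6 FPKM in VE knockout replicate 1 and at most 2.66 FPKM in every other E6.5 library. The part of these cells in the results was not tested. In bulk libraries, fewer cells of a type and less RNA per cell cannot be told apart.

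Maternal loss of Bap1 left no gene of the 8 called in any E6.5 lineage, and few genes of any kind were called there. By limma 0 of 8 were called in EPI, where 0.0% of 13914 genes were called and 469 had an unadjusted p under 0.05. In VE 0 of 8 were called, beside 0.00719% of genes, which is 1 gene, and 248 at an unadjusted p under 0.05. In EXE 0 of 8 were called, beside 0.0% of genes and 251 at an unadjusted p under 0.05. In each lineage this last count is below the 0.05 share of genes tested that no difference at all would give. EXE has 1 control library, which the fit assumes to vary like the other groups.

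In EXE the differences ran from -0.54 ± 0.54 (SE) for Sox3 to 0.90 ± 0.57 for Cdx2. Their 95% confidence intervals are wide, -1.76 to 0.67 for Sox3, -0.38 to 2.17 for Cdx2, -0.53 to 1.14 for Elf5 and -1.14 to 0.94 for Eomes, so changes of about 1 log2 unit could not be told from none. For Elf5, Cdx2 and Hand1 both knockout libraries were above the control, and for Eomes, Ets2 and Sox3 both were below it. With 1 control and 2 knockout libraries such an order is common without any difference, and its share over all genes was not computed. Genotype differences of the trophoblast stem, differentiated trophoblast, BMP and Hippo lists gave 0 calls in each of the 3 lineages.

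**Figure D3:**
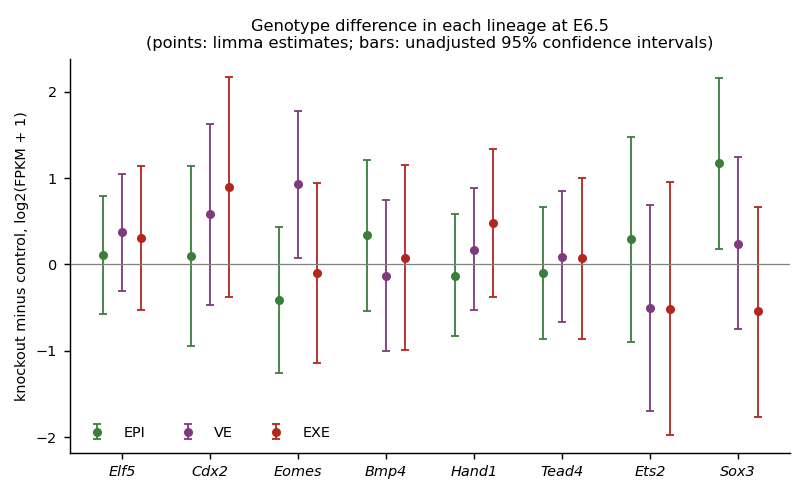
Knockout minus control difference of each gene in epiblast (EPI), visceral endoderm (VE) and extraembryonic ectoderm (EXE) at E6.5, on the log2(FPKM + 1) scale. Points are limma estimates and bars unadjusted 95% confidence intervals. The intervals of Sox3 in EPI and Eomes in VE lie above 0, and neither passed adjustment.

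Sox3 in EPI and Eomes in VE were the genes with an unadjusted p under 0.05. Sox3 measured 13.1 and 6.57 FPKM in EPI controls and 30.1 and 16.3 FPKM in EPI knockouts, without overlap, a difference of 1.17 ± 0.44 (SE, p of 0.0257, limma adjusted p of 1). The Y-linked genes were at 0 in EPI control replicate 2 and EPI knockout replicate 1, so each genotype had 1 library with and 1 without them, and the part of embryo sex in this X-linked gene was not tested. Eomes measured 9.44 and 10.2 FPKM in VE controls and 22.7 and 16.8 FPKM in VE knockouts, without overlap, a difference of 0.93 ± 0.38 (p of 0.0351, adjusted p of 1). The sum of the 6 streak and mesoderm markers was higher too, at 51.7 and 39.8 FPKM in VE controls and 101 and 70.4 FPKM in VE knockouts. The markers did not all rise, since 1 of the 6 was listed at 0 in each VE knockout and 0 of them in the controls. Of 5 tested 0 were called, and the part of these cells was not tested. Without VE knockout replicate 1, which holds the decidua and blood signal, the Eomes difference was 0.72. In EPI the lowest Eomes library, knockout replicate 2 at 6.70 FPKM, also had the lowest streak marker sum, 8.4 FPKM, beside 51.7 to 72.8 FPKM in the other 3.

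Whether the knockout effect differed between lineages was tested directly. For the EXE effect against the EPI effect 0 of 8 genes were called, beside 0.0% of genes and 306 at an unadjusted p under 0.05 by limma, and Sox3 had the lowest p (-1.71 ± 0.70 (SE), p of 0.0355, adjusted p of 1). For the EXE effect against the VE effect 0 of 8 were called, beside 0.0% of genes and 205 at an unadjusted p under 0.05. Eomes had the lowest p there (-1.03 ± 0.60, p of 0.118, adjusted p of 1). Here too both counts of unadjusted p are below the 0.05 share that no difference would give.

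Up to the late 2-cell stage most of the 8 genes were near 0. Of these, 3 genes, Tead4, Eomes and Ets2, passed the filter of at least 1 FPKM in 2 libraries of a stage. No stage between L2C and E6.5 was sampled. Ets2 was a maternal transcript that declined, whereas Eomes appeared in E2C and Tead4 in L2C embryos. Elf5, Cdx2, Bmp4 and Sox3 stayed below 1 FPKM in all 26 libraries, with highest values of 0.386, 0.191, 0.718 and 0.355 FPKM. Hand1 reached 0.512 and 1.22 FPKM in the L2C controls, was listed at 0 in 2 of 3 L2C knockouts and measured 0.197 FPKM in the other, and did not exceed 0.181 FPKM at any earlier stage.

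Ets2 measured 12.9 and 13.5 FPKM in FGO controls and 15.9, 15.5 and 14.2 FPKM in FGO knockouts. It stayed at 15.7 to 18.3 FPKM in MII eggs and 16.1 to 19.9 FPKM in L1C embryos and measured 3.38 and 3.47 FPKM in L2C controls. Between FGO and L2C, averaged over genotypes in a fit of all 26 libraries, it fell by 1.53 ± 0.12 (SE, limma adjusted p of 1.8e-10), while Eomes rose by 1.24 ± 0.24 (9.5e-05) and Tead4 by 1.87 ± 0.12 (9.37e-12). All 3 genes tested were called, beside 80.1% of 15184 genes, so most genes of the table were called. Eomes did not exceed 0.335 FPKM in FGO, MII or L1C libraries and measured 3.24, 2.1 and 4.24 FPKM in E2C controls.

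**Figure D4:**
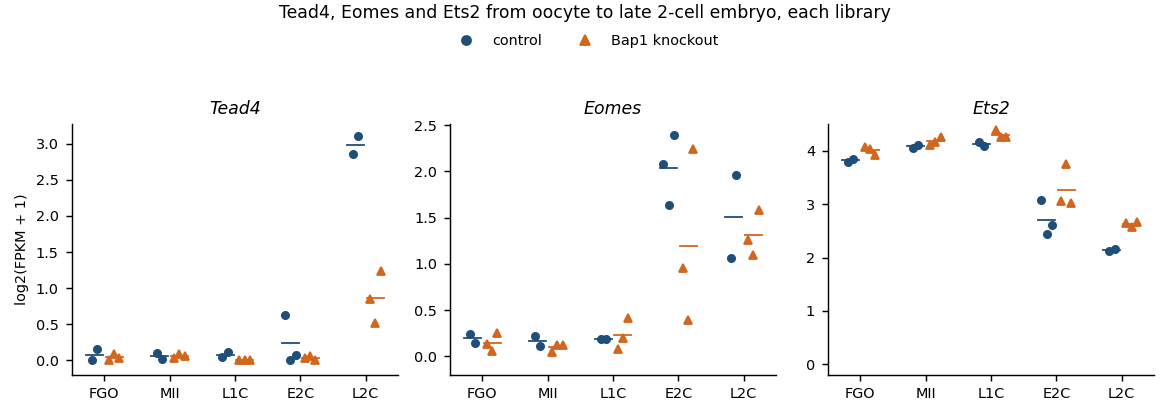
Levels of Tead4, Eomes and Ets2 as log2(FPKM + 1) in fully grown oocytes (FGO), MII eggs, late 1-cell (L1C), early 2-cell (E2C) and late 2-cell (L2C) embryos. Points are libraries, circles control and triangles Bap1 knockout, and short lines group means. In L2C the Tead4 controls lie above the 3 knockouts.

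Tead4 was the 1 gene of the 8 called between genotypes at an early stage. It measured 6.24 and 7.65 FPKM in L2C controls and 0.805, 0.428 and 1.36 FPKM in L2C knockouts, so the lowest control was well above the highest knockout. The difference was -2.12 ± 0.26 (SE, 95% confidence interval -2.72 to -1.51, limma adjusted p of 0.000801), and 62 of 12718 genes tested, Tead4 included, were as low or lower. At that stage 38.5% of all genes were called and 19.5% were called lower, so 1 call among the 3 genes tested is a share near the background. Tead4 did not exceed 0.539 FPKM in any earlier library of either genotype. Leaving out any 1 L2C library gave differences from -2.30 to -1.94. With a filter of a mean of at least 5 FPKM Tead4 was not tested.

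Ets2 went the other way in L2C, at 3.38 and 3.47 FPKM in controls and 5.24, 4.98 and 5.34 FPKM in knockouts. The groups did not overlap, but the difference of 0.48 ± 0.17 (SE) missed the threshold (limma adjusted p of 0.0579). It passed with TPM scaling (0.68, adjusted p of 0.0268), centring (0.0487), no trend (0.0326) and the fit of all 26 libraries (0.0287). Eomes measured 1.09 and 2.88 FPKM in L2C controls and 1.39, 1.13 and 1.99 FPKM in L2C knockouts, with overlap (difference -0.20 ± 0.31, adjusted p of 0.637).

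At the earlier stages no gene of the 8 was called by limma, and none had an unadjusted p under 0.05. Ets2 was the 1 gene tested in FGO (0.19 ± 0.09 (SE), adjusted p of 0.229), MII (0.09 ± 0.08, 0.472) and L1C (0.17 ± 0.08, 0.211), where 8.34%, 12.0% and 14.9% of all genes were called. In E2C, where 10.1% of genes were called, Eomes measured 0.934, 0.313 and 3.74 FPKM in knockouts, a difference from the controls of -0.84 ± 0.44 (adjusted p of 0.254). Without E2C knockout replicate 3, the library at 3.74 FPKM, the difference was -1.36 (adjusted p of 0.0435). Ets2 measured 7.42, 4.46 and 5.09 FPKM in E2C controls and 7.30, 12.5 and 7.13 FPKM in E2C knockouts (0.57 ± 0.26, adjusted p of 0.184). In the fit of all 26 libraries, which gives E2C the smaller spread of the other stages, both were called (adjusted p of 0.0471 and 0.0082).

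The TEAD and Hippo genes around Tead4 changed in both directions in L2C embryos, where 14 of 19 listed were tested, 2 were higher and 4 lower. That share is near the 38.5% of all genes called at this stage. Tead1 rose, from 1.71 to 1.75 FPKM in controls to 6.53 to 8.25 FPKM in knockouts (1.61 ± 0.19 (SE), limma adjusted p of 0.000589), as did the kinase gene Stk3 (1.06 ± 0.10, adjusted p of 0.000348). Wwtr1, which encodes the co-activator TAZ, fell from 4.70 to 5.38 FPKM to 1.48 to 1.70 FPKM (-1.23 ± 0.20, adjusted p of 0.00232), and Stk4, Mob1a and Nf2 fell as well. Yap1 measured 243 to 255 FPKM in controls and 240 to 255 FPKM in knockouts (-0.01 ± 0.08, adjusted p of 0.942). Tead1 was also higher in knockout MII (0.72 ± 0.15, adjusted p of 0.0249), L1C (0.82 ± 0.15, 0.0128) and E2C (1.46 ± 0.26, 0.0139), and measured 0.57 ± 0.14 in FGO (0.0678). The genes of this and the next paragraph were named after their values were seen.

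**Figure D5:**
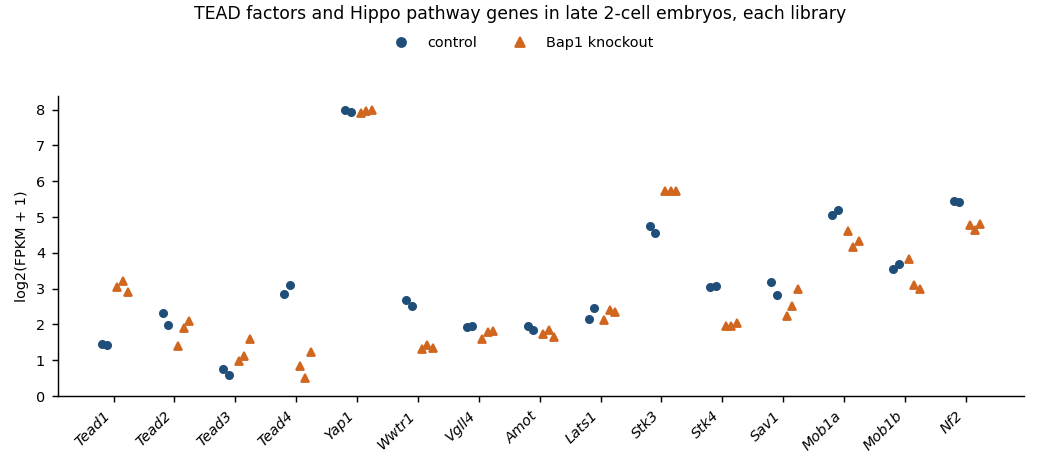
Levels of TEAD factors and Hippo pathway genes as log2(FPKM + 1) in late 2-cell embryos. Each point is 1 library, circles control and triangles Bap1 knockout. Tead4 and Wwtr1 are lower and Tead1 and Stk3 higher in all 3 knockout libraries, and Yap1 overlaps.

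Among the other trophoblast stem genes 9 of 12 were tested in L2C, with 3 higher and 2 lower, beside 38.5% of all genes called and 19.5% called lower. Tfap2c fell from 16.6 to 17.7 FPKM in controls to 6.34 to 6.62 FPKM in knockouts (-1.28 ± 0.14 (SE), limma adjusted p of 0.000450), and Esrrb fell by 1.11 ± 0.20 (0.00350). Sox2, Id2 and Tfap2a were higher, by 0.92 ± 0.25 (0.0227), 0.74 ± 0.17 (0.0118) and 0.66 ± 0.23 (0.0489). Klf5, a trophectoderm factor abundant at this stage, measured 26.1 to 31.5 FPKM in controls and 22.5 to 26.8 FPKM in knockouts (-0.18 ± 0.13, adjusted p of 0.310). At earlier stages the list had 1 gene higher and 2 lower of 6 tested in FGO and in MII, none higher and 1 lower of 6 in L1C, and none higher and 2 lower of 10 in E2C, beside 8.34%, 12.0%, 14.9% and 10.1% of all genes called. Id2 was the higher one in FGO (1.37 ± 0.17, adjusted p of 0.00788) and MII (1.04 ± 0.18, 0.0149). Gata3, a trophectoderm factor, was lower in knockout FGO, at 0.155 to 0.297 FPKM beside 1.82 to 2.07 FPKM in controls (-1.26 ± 0.13, adjusted p of 0.00384), and also in MII (-1.57 ± 0.15, 0.00176), L1C (-1.71 ± 0.16, 0.00110) and E2C (-1.14 ± 0.28, 0.0381). The other lower genes were Tfap2c in FGO (-0.43 ± 0.10, 0.0481) and MII (-0.50 ± 0.08, 0.0116) and Dusp6 in E2C (-1.39 ± 0.25, 0.0144). In EXE at E6.5 Gata3 measured 16.0 FPKM in the control and 12.1 to 14.9 FPKM in the knockouts. The 5 granulosa cell markers summed to at most 1.59 FPKM in any early library.

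For each of the 8 genes the 2 genes most alike over the 11 E6.5 libraries were found by Pearson correlation of log2(FPKM + 1), as a description in which all points share 3 lineages. Elf5 was closest to Duoxa2 (0.999) and Wnt6 (0.997), Hand1 to Duoxa2 (0.999) and Cmtm5 (0.998), and Bmp4 to Esrrb (0.995) and Duoxa2 (0.994). Duoxa2, a maturation factor of dual oxidases, averaged 74.0 FPKM in EXE, 0.0153 FPKM in VE and 0 in EPI. Tead4 was closest to Fabp3 (0.993) and Trap1a (0.992), which averaged 534 and 119 FPKM in VE. Cdx2 was closest to Myd88 (0.970) and Plet1 (0.968), Eomes to Arhgef39 (0.965) and Bmp1 (0.964), and Ets2 to Dcaf12l1 (0.978) and Ak4 (0.971). Sox3 was closest to Ydjc (0.992) and Cacnb3 (0.986), both shared by EXE and EPI, with Ydjc averaging 43.2 FPKM in EXE, 35.6 FPKM in EPI and 5.50 FPKM in VE.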

How the data were processed

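The 37 libraries, 26 of total RNA and 11 of poly(A) RNA, were trimmed with Trim Galore 0.6.6, aligned with STAR 2.7.9 and quantified with StringTie 2.1.7 on mm10, per the submitters' processing notes. The annotation, filters and strand setting are not given in the sources used here. The values are FPKM, as deposited by the authors, although the column headers of both tables read RPKM. A single value below 0 was set to 0, and all other values were kept as deposited. FPKM sums ran from 300668 to 430784 in the total RNA table and from 593705 to 704522 in the E6.5 table, so levels were compared within a table. Within the total RNA table a single gene, Gm23935, took 5.98% to 8.29% of the sum in FGO. It took 20.2% and 23.1% in L2C controls and 15.3% to 17.3% in L2C knockouts, and its part in the differences was not tested. Read depth could not be recovered, since at most 27.9% of low values fell within 0.05 of whole steps.

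Genes of at least 1 FPKM in 2 libraries of a fit were tested with limma 3.58.1 (R 4.3.3) on log2(FPKM + 1), with a trended prior and Benjamini-Hochberg adjustment over all genes of a comparison at 0.05. A single fit held the 11 E6.5 libraries, and each early stage was fitted alone, except that L2C against FGO used all 26 libraries. Simulated data were run through the fit for EXE against EPI, for the genotypes in EPI and in L2C, and for L2C against FGO. The outcome is not given here. The genotype comparison in EXE and the differences between lineage effects were not simulated. Groups came from the labels. Positions came from GENCODE M21 (GRCm38), where 54349 of 55401 gene identifiers had the same version and 55141 any version. The 8 genes and the gene lists were chosen with earlier results of these data known. Named were the 8 genes, of each list up to 2 called genes per direction and E6.5 comparison, the 2 nearest patterns per gene, and others where the text says so or to give marker values. Alternatives were another pseudocount, filters, TPM scaling, centring, an untrended prior, a replicate block, other sets of libraries and leaving out each library.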

Additional observations from a re-analysis of the deposited data

How the results depend on the processing

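Among the 8 genes, the EXE differences of Elf5, Eomes, Bmp4, Hand1 and Ets2 kept their direction and call under each alternative run, and Tead4 in L2C under each that tested it (-1.94 to -2.98, limma adjusted p of 9.03e-09 to 0.0137). With the replicate block Tead4 in EXE against VE was 0.93 (adjusted p of 0.0966). The labels do not say that replicate numbers pair libraries. The deviations of same-numbered libraries correlated between genotypes at 0.59 in EPI, 0.42 in VE and -0.08 to 0.14 at the early stages (5 of 15 pairs over 0.1). Between lineages they correlated at -0.38 to 0.51 (2 of 8). Where both groups had 2 libraries, replicates 1 and 2 give the same correlation by construction. The Y-linked genes summed to 0 in replicate 1 and 68.0, 48.1 and 39.9 FPKM in replicate 2 of the EPI, VE and EXE knockouts. Control replicate 1 measured 38.1, 52.5 and 25.9 FPKM, and control replicate 2 was at 0 in EPI and VE. Same-numbered lineage libraries thus matched in Y-linked signal within a genotype, and whether they shared embryos was not tested. The block left Tead4 in L2C at -2.30 (adjusted p of 0.00313), turned Bmp4 in EXE to -0.27 between genotypes and moved the calls in FGO from 964 to 105.

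Values that changed sign were not called in either setting. In knockout libraries alone Sox3 was -0.36 between EXE and EPI and Hand1 -0.15 between EPI and VE, and centred on library medians Hand1 was -0.08. In control libraries alone Eomes was 0.47, Bmp4 -0.07 and Ets2 -0.04 between EPI and VE. Centring moved Elf5 and Cdx2 between genotypes in EPI to -0.03 each. Leaving out 1 library at a time gave, between EPI and VE, -0.47 to 0.07 for Eomes and -0.08 to 0.09 for Hand1. Between genotypes in EPI it gave -0.95 to 0.13 for Eomes, -0.24 to 0.81 for Ets2 and -0.28 to 0.03 for Hand1. In VE it gave -0.44 to 0.19 for Bmp4, -1.15 to 0.14 for Ets2, 0.00 to 0.35 for Hand1, -0.04 to 0.53 for Sox3 and -0.21 to 0.39 for Tead4. In EXE it gave -0.27 to 0.43 for Bmp4 and -0.10 to 0.24 for Tead4, and in L2C -0.65 to 0.24 for Eomes. The cause was not tested.

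Of the 8 genes, the number called between genotypes in E2C was 2 in the fit of all 26 libraries and 0 to 1 with 1 library left out, the 1 being Eomes without knockout replicate 3. In L2C, with 1 called, it was 2 with TPM scaling, centring, no trend or all 26 libraries, the added gene being Ets2, and 0 with a mean of at least 5 FPKM, where Tead4 was not tested. For L2C against FGO, with 3 called, it was 5 without a filter and 1 with a mean of at least 5 FPKM, as more or fewer genes were tested.

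Counts over all genes moved more. TPM scaling moved the median of all genes between genotypes in L2C from 0.028 to 0.161 and the calls from 2417 higher and 2476 lower to 3014 and 1908. It moved the median in E2C to 0.133, and for L2C against FGO from -0.156 to -0.505. In control libraries alone 933 genes were called between EXE and EPI (2722 otherwise) and 1353 between EXE and VE (3140). A mean of at least 5 FPKM gave 2821 calls between EPI and VE (5347 otherwise), 555 in MII (1364) and 6118 for L2C against FGO (12168). Without a filter the calls were 1426 between genotypes in EXE, 35 in EPI, 1216 and 1160 for the differences between lineage effects, each 0 otherwise, and 165 in E2C (1193), 762 in L1C (1657) and 3180 in L2C (4893). The fit of all 26 libraries gave 4407 in E2C, and a pseudocount of 0.1 gave 2 in VE (1 otherwise). With 1 library left out the lowest counts were 15 in FGO (without control replicate 2), 157 in MII (control replicate 2), 238 in L1C (control replicate 1), 317 in E2C (control replicate 1) and 2878 in L2C (control replicate 1). The EXE comparisons without their 1 control library were not run. Depth is unknown, so counting error behind values under 1 FPKM could not be given.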
